A study of Mus musculus with 6 samples.

Results

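Dazl and 9 other genes of male germ cells were followed in primary mouse dermal fibroblasts with and without 5-aza-2'-deoxycytidine: Taf7l, Stk31, Stra8, Slc25a31, Brdt, Hspa2, Ldhc, Pgk2 and Ddx25. They were chosen by name, and every probe set whose single gene symbol was one of the 10 names was kept whatever its signal. The 10 are among 18193 genes named by the array. They had 15 of the 45037 probe sets of the array outside the manufacturer's controls: 6 for the 4 genes that act in early germ cells or at the entry into meiosis (Dazl, Taf7l, Stk31, Stra8) and 9 for the 6 genes known mainly from spermatocytes and spermatids. Dermal fibroblasts are the matrix-producing cells of the skin. All cultures came from the dermis of B6 mice of mixed sex, 0 to 2 days old, and were used at passage 4. In the 3 treated cultures the drug was present at 5 µM for 96 hours, was renewed every 24 hours and was followed by 24 hours in medium without it. The 3 control cultures were untreated. Explants were made separately for each biological replicate, and the labels do not say whether a replicate pooled several pups.

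Decitabine, the other name of 5-aza-2'-deoxycytidine, enters DNA in place of deoxycytidine and binds DNA methyltransferases irreversibly, and methyl groups on CpG dinucleotides are then lost as cells divide. A group of germ cell genes, Dazl among them, carries promoters rich in CpG that are methylated and silent in somatic cells and unmethylated in germ cells. Other genes of the testis are switched on late, in spermatocytes and spermatids, and depend on factors such as CREM that act there. The comparison asks which of the 10 transcripts differ after exposure to the drug. DNA methylation itself was not analysed here.

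The promoter windows of the 4 genes that rose are shown because the drug acts on CpG methylation, and that of Pgk2 is shown as a window poor in CpG. Sequences are those of RefSeq on the build GRCm38.p6, from 250 bases before the annotated start of the gene to 50 bases after it, 5′ to 3′ on the strand of the gene, with each CpG in capitals. The windows are chr17:50293571-50293870 on the minus strand for Dazl, chrX:134476441-134476740 on the minus strand for Taf7l, chr3:40708621-40708920 on the plus strand for Slc25a31, chr6:49395289-49395588 on the plus strand for the upstream of the 2 listed starts of Stk31, and chr17:40208560-40208859 on the minus strand for Pgk2.
Dazl: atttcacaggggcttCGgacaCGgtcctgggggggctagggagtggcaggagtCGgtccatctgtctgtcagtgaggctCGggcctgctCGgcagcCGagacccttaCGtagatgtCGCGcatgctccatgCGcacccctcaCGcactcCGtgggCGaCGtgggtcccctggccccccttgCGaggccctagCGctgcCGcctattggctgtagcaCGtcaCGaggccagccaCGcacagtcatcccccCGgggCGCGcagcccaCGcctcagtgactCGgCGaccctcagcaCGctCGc
Taf7l: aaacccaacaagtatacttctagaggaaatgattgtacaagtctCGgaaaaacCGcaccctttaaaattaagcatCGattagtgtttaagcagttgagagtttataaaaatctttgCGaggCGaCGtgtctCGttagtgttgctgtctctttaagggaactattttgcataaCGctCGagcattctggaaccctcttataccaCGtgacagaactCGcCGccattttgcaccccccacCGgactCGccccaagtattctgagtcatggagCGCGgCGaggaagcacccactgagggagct
Slc25a31: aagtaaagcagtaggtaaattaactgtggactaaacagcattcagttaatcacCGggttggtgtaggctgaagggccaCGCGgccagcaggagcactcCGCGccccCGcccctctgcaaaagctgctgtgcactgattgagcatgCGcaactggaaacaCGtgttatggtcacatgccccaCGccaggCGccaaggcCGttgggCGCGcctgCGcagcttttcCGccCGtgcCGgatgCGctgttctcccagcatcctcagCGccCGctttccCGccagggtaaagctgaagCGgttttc
Stk31: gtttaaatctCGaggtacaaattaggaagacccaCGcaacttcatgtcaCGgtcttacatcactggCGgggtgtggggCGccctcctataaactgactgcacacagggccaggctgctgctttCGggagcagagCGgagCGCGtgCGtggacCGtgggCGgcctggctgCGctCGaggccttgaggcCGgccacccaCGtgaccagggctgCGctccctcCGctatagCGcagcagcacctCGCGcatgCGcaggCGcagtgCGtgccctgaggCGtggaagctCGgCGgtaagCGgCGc
Pgk2: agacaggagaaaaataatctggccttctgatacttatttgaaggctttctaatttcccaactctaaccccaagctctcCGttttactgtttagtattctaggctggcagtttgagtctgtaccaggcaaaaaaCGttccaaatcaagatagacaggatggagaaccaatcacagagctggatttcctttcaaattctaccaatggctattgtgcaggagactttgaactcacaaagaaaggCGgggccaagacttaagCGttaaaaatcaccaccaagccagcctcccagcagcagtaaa
The Dazl window holds 28 CpG and is 68.7% G and C, the Taf7l window holds 17 and is 47.0% G and C, and the Pgk2 window holds 4 and is 43.0% G and C.

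The germ cell genes did not respond alike. In treated cultures Dazl, Taf7l, Slc25a31 and Stk31 were higher, 1 of 3 probe sets of Brdt was lower, and no probe set of Stra8, Hspa2, Ldhc, Pgk2 or Ddx25 passed the test. Counted by probe set, 6 of 15 were called higher and 1 lower at a Benjamini-Hochberg adjusted p under 0.05 by limma. Over all 45037 probe sets of the same fit 9.07% were called higher and 9.80% lower. The higher calls fell on 5 of the 6 probe sets of the early genes, with a median log2 change of 1.86. They also fell on 1 of the 9 of the later genes, with a median of 0.01. The median over all probe sets was 0.00. Counted by gene, 3 of the 4 early and 1 of the 6 later genes had a higher call. A separate list of early germ cell genes, given below, had 1 of 41 probe sets higher, so the contrast describes these 10 genes and not the stage. Log2 changes are treated minus control on the scale log2(signal + 9.66), which understates the change of dim probe sets, and no p is given for the lists because the genes were picked by name with earlier results known.

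**Figure D1:**
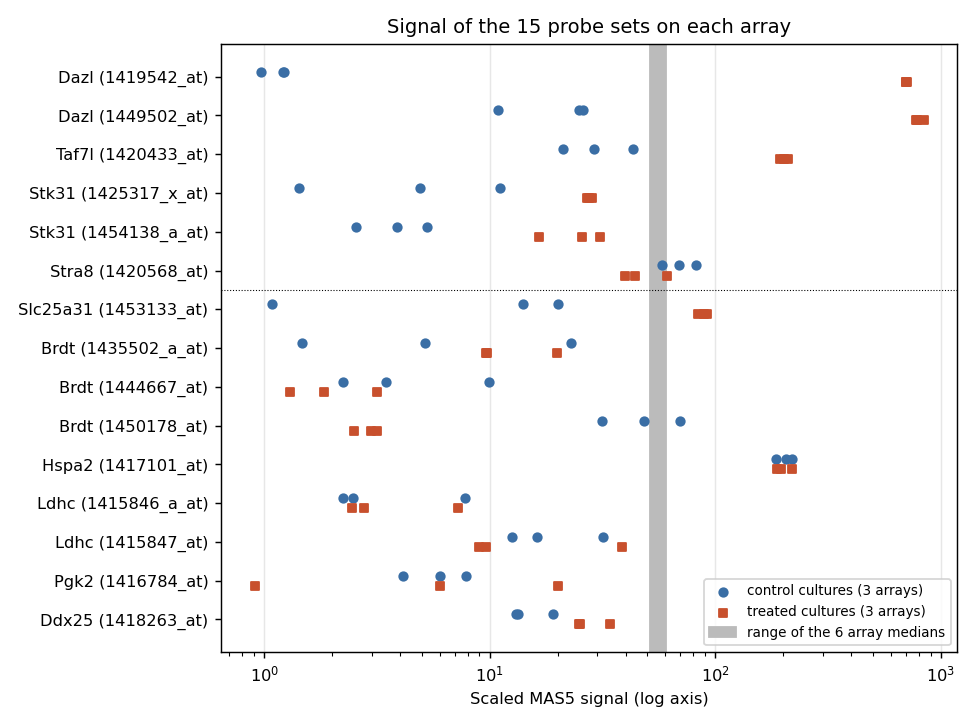
Scaled MAS5 signal (log axis) of the 15 probe sets on each of the 3 control arrays (circles) and 3 treated arrays (squares), with the range of the 6 array medians shaded and the early genes above the dotted line. Both Dazl probe sets lie far to the right on all treated arrays, Taf7l and Slc25a31 cross the shaded band, and the treated signals of Stk31 stay to the left of it.

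Signals in this culture system were mostly low for these genes. Of the 15 probe sets, 12 lay below the array median on all 3 control arrays, and 8 lay below it on all 6 arrays. Detection calls were not analysed here, and whether a dim probe set was above background is not known. A filter that asks for a signal above the array median on at least 3 of the 6 arrays would have kept 6 of the 15, and it would have kept Dazl, Taf7l and Slc25a31 through their treated arrays alone. Of these 6 it would have called 4 higher, those of Dazl, Taf7l and Slc25a31. Passing through treated arrays alone already requires higher signals there. This share therefore cannot be weighed against the 18.4% called higher among all probe sets that pass. All 15 were therefore tested without a filter. The number of arrays, 3 in each group, limits the precision.

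Dazl encodes an RNA-binding protein of germ cells that promotes the translation of their transcripts and is needed for germ cell development in both sexes. Probe set 1419542_at had scaled signals of 1.21, 0.971 and 1.22 on control arrays 1 to 3 and of 701.6, 704.4 and 701.5 on treated arrays 1 to 3. Probe set 1449502_at had 25.8, 10.9 and 24.8 in controls and 842, 776 and 788 in treated cultures. All treated signals exceeded all control signals by a wide margin, and the treated arrays differed little among themselves. The log2 change was 6.04 ± 0.18 (SE, n = 3 per group; limma adjusted p = 3.17e-07) for 1419542_at and 4.79 ± 0.21 (adjusted p = 1.99e-06) for 1449502_at. The dim controls set the size of these folds. Over the alternative settings the change of 1419542_at ran from 4.22 to 7.63, with both ends set by the pseudocount. On each array the rank of a probe set among all others was also taken: 1419542_at moved from between percentiles 0.766 and 2.03 in controls to between 91.2 and 91.4 in treated cultures.

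Taf7l is an X-linked relative of the general transcription factor subunit Taf7 and is used by germ cells. Its probe set had signals of 43.0, 21.0 and 29.1 in controls and of 209.4, 192.7 and 201.9 in treated cultures. The groups did not overlap, and the log2 change was 2.41 ± 0.23 (limma adjusted p = 0.000145). It rose from between percentiles 28.1 and 45.8 to between 74.9 and 76.7. Taf7, the counterpart found in all cells, had 3 probe sets, and the brightest of them went from 42.2 ± 10.0 (SD, n = 3) to 32.0 ± 12.6 without passing the test (log2 change -0.35, adjusted p = 0.578). Both means lie below the array medians, which ran from 51.4 to 60.6, so this dim probe set says little about Taf7.

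Stk31, a protein kinase with a Tudor domain that is found in spermatogonia, had 2 probe sets. Probe set 1425317_x_at had signals of 4.92, 11.1 and 1.42 in controls and of 27.6, 28.3 and 27.0 in treated cultures. Probe set 1454138_a_at had 3.88, 5.29 and 2.54 in controls and 30.9, 16.5 and 25.6 in treated cultures. The groups did not overlap at either, yet every treated signal stayed below its array median, at percentile 38.8 or lower. The log2 changes were 1.32 ± 0.29 (limma adjusted p = 0.0131) and 1.31 ± 0.26 (adjusted p = 0.00708). The size depended on the pseudocount, with 0.58 and 0.56 at a pseudocount 4 times larger and 2.05 and 2.07 at one 4 times smaller, called in all of these. Without control replicate 3 the change of 1425317_x_at was 1.10 with an adjusted p of 0.0630. The suffix _x_at marks a probe set whose probes may also bind other transcripts, and _a_at one that is shared by several transcripts of a gene.

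Stra8 is the retinoic acid-induced gene that lets germ cells enter meiosis. Its signals were 69.0, 82.3 and 58.3 in controls and 43.9, 39.7 and 61.3 in treated cultures. The groups overlapped, and the log2 change of -0.46 ± 0.26 was not called (limma adjusted p = 0.288). Unlike the other 3 early genes, Stra8 was near the array median before treatment, between percentiles 51.6 and 57.5.

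Slc25a31, the ADP/ATP carrier that male germ cells use in meiosis, was the 1 gene of the later group that rose. Its signals were 14.1, 1.08 and 20.2 in controls and 88.7, 84.1 and 91.6 in treated cultures. The treated arrays lay close together, between percentiles 58.0 and 61.9, and the groups did not overlap. The log2 change was 2.31 ± 0.40 (limma adjusted p = 0.00378), and it was 1.35 at a pseudocount 4 times larger. The carriers of somatic mitochondria moved little: the brightest probe set of Slc25a4 went from 6203 ± 764 (SD, n = 3) to 7227 ± 396 (log2 change 0.23, adjusted p = 0.201) and that of Slc25a5 from 2914 ± 113 to 3413 ± 202 (0.23, adjusted p = 0.0824). Of the 8 probe sets of Slc25a5, 4 dimmer ones were called higher, with changes from 0.29 to 0.35.

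Brdt, the testis member of the BET family, binds acetylated histones and reorganises chromatin in spermatocytes and spermatids. Its 3 probe sets did not give the same reading. The brightest, 1450178_at, had signals of 69.9, 31.4 and 48.4 in controls and of 2.98, 3.16 and 2.49 in treated cultures, without overlap. Its log2 change was -2.20 ± 0.31 (limma adjusted p = 0.00126), and it was -1.07 at a pseudocount 4 times larger. Probe set 1435502_a_at had 1.47, 5.18 and 22.9 in controls and 9.71, 9.67 and 19.8 in treated cultures (log2 change 0.35 ± 0.40, adjusted p = 0.650), and 1444667_at lay between 1.29 and 9.93 on all arrays (-0.31 ± 0.21, adjusted p = 0.395). The fall therefore rests on a single probe set, and which of the 3 follows the Brdt transcript was not tested. Among the somatic BET genes, Brd2 rose from 778 ± 31.0 to 1233 ± 139.5 (log2 change 0.65, adjusted p = 0.00141; 0.58 with adjusted p = 0.0712 without scaling of the arrays), and Brd3 changed by -0.12 (adjusted p = 0.663).

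Hspa2, an HSP70 chaperone required in spermatocytes and also transcribed in somatic tissues, was above the array median everywhere. Its signals were 206.4, 218.4 and 185.4 in controls and 194.6, 219 and 187 in treated cultures, which overlapped almost fully. The log2 change was -0.02 ± 0.12 (limma adjusted p = 0.938). Its constitutive relative Hspa8 went from 6340 ± 666 to 8305 ± 767 at its brightest probe set (log2 change 0.39; adjusted p = 0.0384). That call was lost without scaling (0.31, adjusted p = 0.480), without an intensity trend (0.39, adjusted p = 0.136) and on leaving out control replicate 1 or 2 or treated replicate 1 or 3 (adjusted p from 0.107 to 0.138).

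Ldhc and Pgk2 are glycolytic isozymes of spermatocytes, spermatids and sperm. Ldhc gave 7.77, 2.48 and 2.24 in controls and 2.46, 7.25 and 2.77 in treated cultures at 1415846_a_at, and 31.7, 16.2 and 12.5 against 8.94, 9.67 and 38.7 at 1415847_at. Pgk2, an intronless copy of the X-linked Pgk1, gave 4.14, 7.88 and 6.0 against 0.906, 20.1 and 6.0. The groups overlapped at all 3 probe sets, and the log2 changes were 0.01 ± 0.21, -0.15 ± 0.44 and 0.13 ± 0.35 (limma adjusted p = 0.993, 0.877 and 0.870). Signals of both genes were low on all 6 arrays, and no rise was detectable in them. The somatic isozymes were not called either at their brightest probe sets: Ldha changed by -0.12, Ldhb by -0.21 and Pgk1 by 0.11 (adjusted p = 0.487, 0.132 and 0.553).

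Ddx25, an RNA helicase that exports and activates messages for spermatid development, had signals of 13.3, 13.1 and 19.1 in controls and of 34.1, 25.1 and 24.8 in treated cultures. The groups did not overlap, but the log2 change of 0.60 ± 0.28 was not called (limma adjusted p = 0.205). With Ddx25, 7 of the 15 probe sets had all treated signals above all control signals, and 1 had them all below. Over all probe sets these shares were 16.8% and 17.3%. With 3 arrays against 3, an exact permutation test of a single probe set cannot give a two-sided p below 0.1. The relative Ddx19b changed by 0.23 (adjusted p = 0.632).

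**Figure D2:**
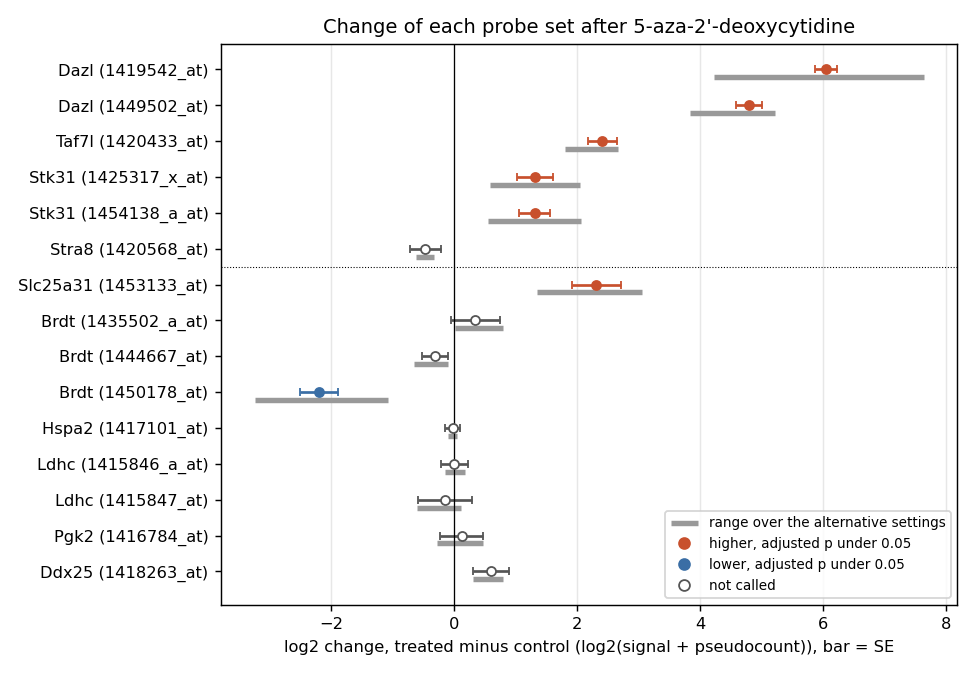
Log2 change, treated minus control, of the 15 probe sets with its standard error (n = 3 arrays per group), and in grey the range of the change over the alternative settings of the analysis. The 6 higher calls and the 1 lower call keep their sign over the grey range, which is widest for 1419542_at of Dazl, from 4.22 to 7.63.

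Late spermatid genes, a separate list of sperm structure and chromatin packaging genes, were set beside the 10 genes. The array named 38 of the 39 entries with 58 probe sets, of which 2 were called higher (3.45%) and 1 lower (1.72%) by limma. Both shares are below those of all probe sets, 9.07% and 9.80%, but dim probe sets are called less often and most of this list was dim. By the brightest probe set of each of the 38 genes, 2 were called higher and 1 lower. In the same way, 2932 genes with a promoter window were below percentile 40 on all control arrays. Of these 6.96% were called higher and 21 of the 2932 lower. Beside these dim genes, 1 of 38 lower is not a low share. The median log2 change of the list was -0.03. Spaca1, a protein of the acrosome membrane, went from 32.7 ± 3.34 (SD, n = 3) to 79.1 ± 5.49 (log2 change 1.07, adjusted p = 0.0131), and Catsper3, a subunit of the sperm calcium channel, from 8.54 ± 5.23 to 26.9 ± 3.73 (1.04, adjusted p = 0.0392). Klhl10, a ubiquitin ligase adaptor of spermatids, went from 45.4 ± 13.5 to 12.7 ± 8.55 (-1.33, adjusted p = 0.0346). The 2 higher calls became 1 without control replicate 1 or treated replicate 3, 0 without treated replicate 2 and 4 after quantile normalization, and the lower call was lost without control replicate 2 or 3 or treated replicate 2. The 5 genes of the protamines and transition proteins, which replace histones in the sperm nucleus, had 8 probe sets. Their signals lay between 0.129 and 101.4, and limma called 0 of them, with 1 at an unadjusted p under 0.05. As for the 10 genes, most of the list was dim: 38 of its 58 probe sets lay below the array median on all 6 arrays.

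Other genes of germ cell development did not move as a body. In a list of germ cell specification and stem cell genes, 1 of 41 probe sets was called higher (2.44%) and 5 lower (12.2%), with a median log2 change of 0.02. Over all probe sets 9.07% were called higher and 9.80% lower. Rhox13, an X-linked homeobox gene of germ cells, rose from 2.68 ± 0.772 (SD, n = 3) to 58.5 ± 10.2 (2.46 ± 0.28, SE; adjusted p = 0.000331). Gfra1, the receptor for GDNF on spermatogonial stem cells and also on neural and mesenchymal cells, fell at all 3 of its probe sets, from 579 ± 62.7 to 85.2 ± 9.46 at the brightest (-2.63 ± 0.13). Id4, a transcriptional inhibitor, fell at 2 of its 3 (-0.58 at the brightest). Ddx4, a helicase that marks germ cells, had signals of 41.8, 27.6 and 29.3 in controls and of 21.8, 14.7 and 17.1 in treated cultures, which was not called (adjusted p = 0.207). It is given here after its values were seen, because it is the usual marker of germ cells.

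Among genes of spermatocytes 6 of 47 probe sets were called higher (12.8%) and 1 lower (2.13%), with a median of 0.08. The shares over all probe sets were 9.07% and 9.80%. By the brightest probe set of each of the 20 genes, 2 were called higher and 0 lower, against 12.2% and 13.0% of all genes. Of the 6 higher probe sets, 5 belonged to Hspa4l, an HSP110 chaperone of the testis that also occurs in other tissues, with changes from 0.49 to 1.41. Crem, a transcription factor used in spermatids, rose by 0.45 ± 0.13 for the brightest of 4 (adjusted p = 0.0402), while the 3 dimmer ones were not called. The brightest already lay between percentiles 68.8 and 72.5 in control fibroblasts, and which Crem transcripts rose was not tested. Tbpl1, a TBP relative, fell at the dimmer of its 2 probe sets (-1.30 ± 0.14). In the list of testis isozymes 1 of 20 (5%) was higher, the actin-like Actl7b (0.70, adjusted p = 0.0166), and 1 (5%) was lower, the cleavage factor Cstf2t (-0.32, adjusted p = 0.0188).

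**Figure D3:**
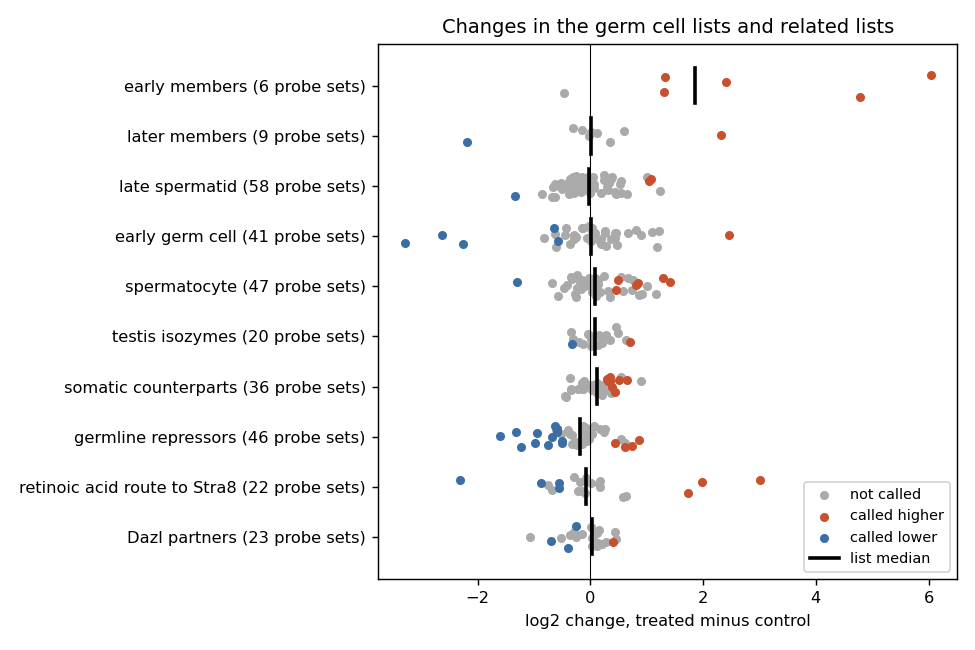
Log2 change, treated minus control, of each probe set in the 2 groups of the 10 genes and in 8 related lists, coloured by its call, with the list median as a bar. The early genes have a median of 1.86, and the medians of the 9 other rows lie between -0.18 and 0.12.

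Genes that keep germ cell promoters silent had more lower than higher calls. This list holds subunits of the E2F6 and MGA complex, which binds E2F and E-box sequences at germ cell promoters, histone methyltransferases and deacetylases, and the DNA methyltransferases. Of its 46 probe sets 4 were called higher (8.70%) and 13 lower (28.3%), against 9.07% and 9.80% of all probe sets, and the median log2 change was -0.18. The list is brighter than the array as a whole, since 35 of the 46 pass the filter on the array median. Of the 23388 probe sets that pass this filter, 4297 (18.4%) were called higher and 4743 lower. The lower share among such bright probe sets is thus above 18.4%, so part of the difference may go with signal level. The 13 lower calls fell on 8 genes and the 4 higher calls on E2f6 and Yaf2. E2f6 itself rose from 302.3 ± 34.1 to 554 ± 34.0 (0.86 ± 0.10, adjusted p = 0.000479) and Yaf2, a partner of the polycomb ring proteins, from 609.6 ± 45.0 to 1025 ± 65.4 (0.74 ± 0.09). The deacetylase Hdac2 fell from 1624 ± 113 to 1004 ± 66.4 (-0.69 ± 0.08), and Ehmt1, a histone H3 lysine methyltransferase, from 809 ± 58.7 to 517.6 ± 13.8 (-0.63 ± 0.08). Whether these changes bear on Dazl or the other genes was not tested.

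The route to Stra8 runs through retinoic acid, and genes of this route were called in both directions. Of 22 probe sets 3 were called higher (13.6%) and 4 lower (18.2%), against 9.07% and 9.80% of all probe sets, with a median of -0.08. By the brightest probe set of each of the 16 genes on the array, 2 were called higher and 3 lower. Over all genes these shares were 12.2% and 13.0%, which 2 and 3 of 16 do not far exceed. Aldh1a3, which makes retinoic acid, rose from 10.3 ± 9.37 to 143.4 ± 34.3 (3.01 ± 0.38, adjusted p = 0.000603), and the receptor Rarb from 24.9 ± 14.9 to 117.6 ± 8.42 (1.98 ± 0.34). Crabp1, a retinoic acid-binding protein, fell from 4241 ± 587 to 880 ± 313.5 (-2.31 ± 0.24), and the receptor Rxra fell at 1 of its 3 probe sets (-0.87 ± 0.14). Proteins known to work with Dazl on RNA were measured by 23 probe sets. Of these 1 was called higher (4.35%), a dimmer probe set of the dynein light chain Dynll1 (0.39), whose brightest was not called. Another 3 were lower (13.0%), for Pum2 (-0.26 at its brightest) and Dzip1 (-0.70). By the brightest probe set of each of the 7 genes on the array, 0 were called higher and 2 lower.

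Promoter composition was compared with the changes. RefSeq windows were found for all 10 genes, 12 in all because Stk31 and Ldhc have 2 listed starts each. Across the 32851 windows of the table the median CpG count was 7, with quartiles of 3 and 20. These windows include genes that the array does not name. Of the 14452 genes with both a probe set and a window, 7819 had at least 17 CpG, so such counts are common among the genes measured. The 4 genes that rose had 28 (Dazl), 17 (Taf7l), 22 (Slc25a31) and 29 or 28 (Stk31). Genes that were not called spanned the range: 4 in Pgk2, 9 or 3 in Ldhc, 10 in Stra8, 21 in Hspa2 and 41 in Ddx25. Brdt had 23. No gene with 10 CpG or fewer rose. A higher count was found in genes that rose or were not called, and in Brdt, which fell only at its brightest probe set.

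**Figure D4:**
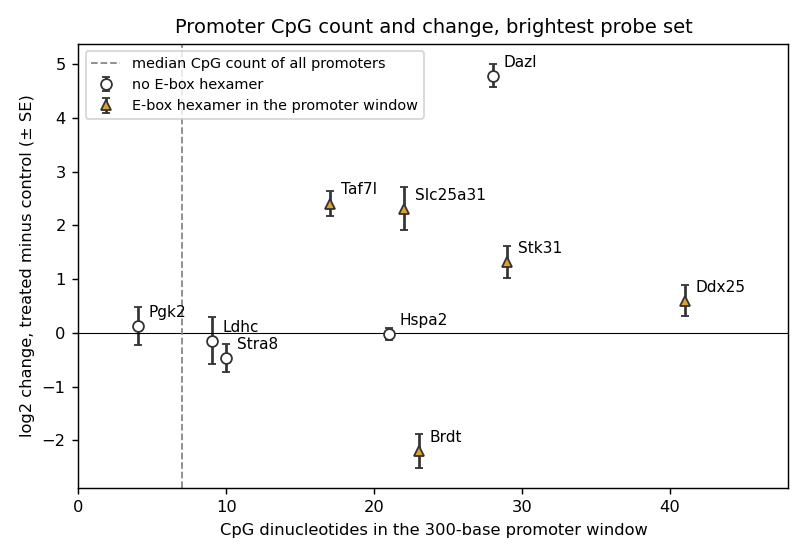
CpG dinucleotides in the promoter window (the window with more, where a gene has several) against the log2 change of the brightest probe set of each of the 10 genes, with its standard error; triangles mark windows that hold the E-box hexamer. Pgk2, Ldhc and Stra8 sit at 10 CpG or fewer, with changes of 0.13, -0.15 and -0.46, and the 7 other genes spread from -2.20 for Brdt to 4.79 for Dazl. The dimmer probe sets of Brdt, not shown here, were not called.

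A motif search on both strands looked for CACGTG, the E-box bound by MAX and MGA, which is its own reverse complement, and TCCCGC, a core bound by E2F factors. CACGTG was found in the windows of 5 of the 10 genes, at 49 bases before the start in Taf7l, 93 in Slc25a31, 55 from the upstream start in Stk31 and 78 in Brdt, and after the start in Ddx25. It can be read in the printed windows of Taf7l, Slc25a31 and Stk31 as caCGtg. Of all windows 7.15% held it, and of the 10320 with at least 17 CpG, the lowest count among the genes that rose, 11.5% did. TCCCGC was found in Slc25a31 and Ddx25, against 20.0% of all windows and 46.9% of those with at least 17 CpG, and no match of one motif overlapped a match of the other in the 12 windows. Dazl held neither. These matches describe letters and not binding.

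The same features were counted in all genes that were dim before treatment, taken as below percentile 40 on all 3 control arrays at their brightest probe set. Of 2932 such genes with a window, 6.96% were called higher. The share was 9.02% of 721 with at least 17 CpG and 6.29% of 2211 with fewer. Within the first of these it was 9.80% of 102 genes with CACGTG and 8.89% of 619 without. Among the genes with fewer CpG it was 11.3% of 115 with CACGTG, which is 13 genes, and 6.01% of 2096 without. The difference between these shares was not tested. Dazl, Slc25a31, Stk31 and Ddx25 belong to the dim genes with at least 17 CpG, and Ddx25, with the most CpG of the 4, was not called.

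Neighbouring genes were called about as often as genes elsewhere. The nearest protein-coding gene with a probe set was taken on each side, in the order of the annotation, and of these 20 genes 3 were called higher (15%), 2 lower (10%) and 15 neither. Over the brightest probe sets of all 18193 genes 12.2% were called higher and 13.0% lower. Each of Dazl, Taf7l and Slc25a31 had 1 neighbour that was called higher and 1 that was not. Rftn1 beside Dazl went from 330.3 ± 21.7 (SD, n = 3) to 437 ± 20.7 (log2 change 0.39, adjusted p = 0.0145), Timm8a1 beside Taf7l from 369 ± 60.2 to 765 ± 51.1 (1.04, adjusted p = 0.000404) and Hspa4l beside Slc25a31 from 155.2 ± 10.4 to 222.4 ± 31.7 (0.49, adjusted p = 0.0356). These 3 were well expressed in controls, with signals above the array median. Neither neighbour of Stk31 was called. Tgfbr3 beside Brdt fell from 1810 ± 54.3 to 415 ± 213 (-2.23 ± 0.30), and Cdon, the nearest measured gene on 1 side of Ddx25, fell from 673 ± 37.4 to 150.2 ± 22.6 (-2.10 ± 0.12).

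The pattern of Dazl over the 6 arrays was shared by many genes, since all of them split by treatment. By Pearson correlation of log2 signals with the brightest Dazl probe set, over 6 arrays that fall into 2 groups of 3, the nearest were Slmap (r = 0.9997), Ly75 (0.9993), Tnfrsf12a (0.9990), Tnni3k (0.9987) and Adgrf5 (0.9987), and 190 of 18192 genes were above 0.99. Taf7l had an r of 0.994, Slc25a31 0.964, Ddx25 0.902, Stk31 0.889 and Brdt -0.941. A high r here says that treated arrays were high and control arrays low, not that the genes changed by the same amount: Slmap, a membrane protein of muscle and other cells, changed by 0.50 and Tnfrsf12a, the receptor of TWEAK, by 1.98.

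The cultures carried fibroblast markers, and their level differed between groups. Of 21 probe sets of 11 fibroblast genes, 16 were called lower (76.2%) and 0 higher. Over all probe sets 9.80% were called lower and 9.07% higher, which applies to each marker list below. The summed signal of the fibroblast probe sets was between 86191 and 99272 in controls and between 44344 and 52101 in treated cultures. In bulk cultures fewer cells of a type and less RNA per cell cannot be told apart. Keratinocyte markers had 3 of 19 probe sets called higher (15.8%) and 0 lower, with summed signals of 489 to 567.5 and 940 to 1511. Leukocyte markers had 1 of 10 higher (10%), and endothelial markers (8 probe sets) and melanocyte and Schwann cell markers (11 probe sets) had 0 called in either direction. Markers of the somatic cells of the testis had 4 of 15 higher (26.7%), in Rhox5 and Star, and 2 lower (13.3%), in Sox9, while the Sertoli marker Amh stayed between 3.87 and 12 on all arrays. The part of these differences in the rise of the germ cell genes was not tested. Within groups, arrays correlated between 0.967 and 0.970 over all log2 signals, and across groups between 0.925 and 0.935.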

How the data were processed

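Each of the 6 cultures was measured on 1 Affymetrix array. The deposited values are linear signal intensities, 1 per probe set, and MAS5 is named in the submitters' processing notes without a version. The deposited intensities were not at a common level (2% trimmed means from 149.2 to 223.9), so each array was scaled to 193.2, the mean of the 6, over the probe sets outside the 64 controls. Signals became log2(signal + 9.66), the pseudocount being 0.05 of that level. Treated and control arrays were compared over all 45037 probe sets, without a filter, in limma 3.58.1 (R 4.3.3; lmFit, then eBayes with its trend option), two-sided, Benjamini-Hochberg adjusted, called under 0.05. The procedure was tested on simulated data. In that simulation only probe sets with a mean log2 signal above the median were changed, so recovery of changes at dim probe sets was not tested. The platform annotation named 1 gene for 34945 probe sets, several for 932 and none for 9160. Gene lists (219 entries, 198 on the array) were matched by symbol and synonym. The 10 genes, the lists and the motifs were chosen with earlier results of these data known.

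Named genes are the 10, their 12 somatic counterparts (10 on the array), at most 4 called genes with the smallest p from each other list, and the 5 closest to Dazl in pattern. Neighbours, Ddx4 and the cell type markers beyond these were added by position or after their values were seen. A gene is represented by its brightest probe set by mean log2 signal. Replicate numbers are shared between the groups. No label ties equal numbers to the same explant, so the number was no term of the fit. Alternatives changed the pseudocount, scaling, filter, trend and replicate block and left out each array.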

Additional observations from a re-analysis of the deposited data

How the results depend on the processing

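The call, or lack of one, and the sign of the called changes held at 14 of the 15 probe sets in every alternative that tested them. The exception was 1425317_x_at of Stk31 without control replicate 3. Among the 10 genes 6 probe sets were higher, and 5 to 6 on leaving out 1 array. With the filter on the mean signal 3 were higher and 0 lower, and with the filter on the array median 4 were higher and 0 lower, because both filters removed Stk31 and the Brdt probe set that fell and the mean filter also removed Slc25a31. Over all probe sets, without scaling 1757 were higher and 2595 lower. Of the late spermatid probe sets, 2 were higher with the settings used throughout, 1 without scaling, 4 after quantile normalization, and 1 and 0 with the median and mean filters, and 0 to 2 on leaving out 1 array. The 1 lower call became 0 with either filter and was 0 to 1 on leaving out 1 array. The cause of the changes without scaling and after quantile normalization was not tested.

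With the replicate number as a block, 6 probe sets of the 10 genes were higher and 1 lower, as without it, 4213 and 4544 were called over all probe sets, and the lower call of the late spermatid list became 0. Same-numbered arrays deviated together weakly (r = 0.19, 0.18 and 0.08), and each array correlated best with its own number, a hint from the data and not from the design. The dim signals limit what can be read from Ldhc, Pgk2, Ddx25 and Stk31.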
